A study of Mus musculus with 6 samples.

Results

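Peroxisomes were examined through 31 genes, 12 Pex genes that build the organelle and 19 genes for its enzymes and membrane transporters. A gene was represented by the probe with the highest mean level over all arrays among the probes that the platform annotation gives to that gene symbol and no other. Such a probe existed for 29 of the 31 genes, out of 18048 genes named on the array in this way. The measurements came from kidney tissue, frozen after the organ had been perfused with buffered saline, of 3 mice homozygous for a mutation and 3 wild-type mice, each on an array of its own, and the design text says that these were different animals. The labels call the mutants KO, but they name neither the mutated gene nor the strain, age or sex, so the labels could not be checked against the transcript of that gene. The question was which peroxisomal transcripts differ between the genotypes, and whether the genes of organelle assembly and the genes of peroxisomal metabolism differ alike.

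Peroxisomes are organelles with a single membrane that shorten very long and branched fatty acids, start the synthesis of ether lipids and break down the hydrogen peroxide that their own oxidases make. Their enzymes are made in the cytosol and imported folded: Pex5 and Pex7 bind them by short targeting signals, Pex13 and Pex14 dock the loaded receptor, and a ubiquitin ligase and an ATPase return it to the cytosol. In the kidney they are known to be abundant in cells of the proximal tubule, which burn fatty acids.

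In mutant kidneys 8 of the 26 tested peroxisomal genes had lower transcript levels, against 1.27% of all tested probes, and 0 had higher levels, against 4.11%. Of the 8, 7 encode enzymes or a lipid carrier of peroxisomal metabolism: Hao2, Ehhadh, Acox2, Pecr, Amacr, Phyh and Scp2. The other was Pex7, the only one of 10 tested Pex genes that fell. The falls lay between 0.57 and 1.24 log2 units, which is 1.48-fold to 2.35-fold. Genes of organelle assembly other than Pex7 had differences between -0.41 and 0.17 and did not pass.

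A gene is said to have fallen or risen where limma, fitted to all 25834 tested probes, gave an adjusted p below 0.05 after Benjamini-Hochberg correction. Among probes with a mean level of at least 3 log2 units, which included all 8 genes, 4.79% were called lower. At an unadjusted p below 0.05, 12 of the 26 were lower, against 5.48% of all tested probes, and 0 were higher, against 11.4%. All 8 calls depended on modelling the spread with an intensity trend: with no such trend, 0 of the 26 passed after adjustment, and 12 of all 25834 probes (0.0465%) were called lower, against 329 with it. In that fit 10 of the 26 were lower at an unadjusted p below 0.05, against 5.06% of all probes. Without wild-type replicate 2 the number of peroxisomal genes called lower was 5, against 0.841% of all tested probes in that fit.

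Promoter windows for 26 of the 31 genes were taken from RefSeq (build GRCm38.p6). They are shown for the genes with the largest falls, Ehhadh and Hao2, and for Pex7, because the windows differ in their content of CG pairs, the sites of DNA methylation, which are printed in capitals. Each covers the 250 bases before the start site given in that table, on the minus strand, read 5′ to 3′.
Ehhadh, chr16:21787835-21788084: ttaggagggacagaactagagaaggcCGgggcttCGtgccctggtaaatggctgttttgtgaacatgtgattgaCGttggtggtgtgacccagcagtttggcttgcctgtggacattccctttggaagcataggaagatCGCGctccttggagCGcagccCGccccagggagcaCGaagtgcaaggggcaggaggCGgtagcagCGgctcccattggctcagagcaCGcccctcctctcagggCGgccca
Hao2, chr3:98893231-98893480: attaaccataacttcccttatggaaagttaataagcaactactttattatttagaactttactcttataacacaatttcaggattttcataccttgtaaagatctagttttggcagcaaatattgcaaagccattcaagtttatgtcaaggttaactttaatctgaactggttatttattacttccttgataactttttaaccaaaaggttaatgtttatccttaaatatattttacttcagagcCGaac
Pex7, chr10:19907675-19907924: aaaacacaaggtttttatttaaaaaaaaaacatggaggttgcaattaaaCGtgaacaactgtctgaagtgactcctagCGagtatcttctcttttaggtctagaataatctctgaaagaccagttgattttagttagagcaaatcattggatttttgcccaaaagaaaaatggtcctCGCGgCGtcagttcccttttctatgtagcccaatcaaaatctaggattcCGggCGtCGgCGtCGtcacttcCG

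The Hao2 stretch holds 1 CG pair, against 12 in the Ehhadh stretch and 11 in the Pex7 stretch. Over the whole windows of 300 bases (250 before and 50 after the start), the ratio of observed to expected CG pairs had a median of 0.79 for 10 Pex genes, 0.60 for 16 genes of enzymes and transporters and 0.39 for the windows of 27025 genes. For the 7 genes that fell and had a window the median was 0.51, with a range from 0.16 for Acox2 to 0.97 for Pex7. For the 15 tested genes that did not pass it was 0.73. Only the first listed window of each gene was used, here and in the search below. Acox2, Pex16 and Abcd3 had 2 windows, and Pex5 and Dao had 3. The ratios describe few windows and were not tested.

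The windows were also searched, on both strands, for AGGTCA, a 6-base site that many nuclear receptors bind, for a direct repeat of AGGTCA with any 1 base between the copies, the form bound by PPAR with RXR, and for CAAAGTCCA, a form preferred by HNF4A. AGGTCA also lies within each copy of the repeat. AGGTCA was found in 3 of the 26 windows, those of Scp2, Phyh and Cat, or 11.5%, against 16.0% of all 27025 windows. The repeat was found in 0 of the 26 and in 0.0444% of all windows. CAAAGTCCA was found in the window of Abcd3 and in 0.477% of all windows. The AGGTCA of Scp2 begins 109 bases before the start site and is shown in capitals with its neighbourhood on the minus strand.
Scp2, chr4:108118621-108118686: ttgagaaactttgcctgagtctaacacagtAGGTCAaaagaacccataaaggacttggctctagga

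Levels below are log2 of the background-subtracted intensity over the array median, listed for replicates 1, 2 and 3 of a genotype in that order. They compare arrays for 1 probe, not 1 gene with another, because probes differ in brightness. Each difference subtracts the wild-type mean from the mutant mean and carries its SE from limma.

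Hao2 encodes a peroxisomal oxidase of hydroxy acids that releases hydrogen peroxide. Its level was 4.84, 4.76 and 4.73 in mutants and 6.42, 5.67 and 5.95 in wild type. The groups were apart, and the mutant arrays lay close together while the wild-type arrays were spread. Hao2 fell by 1.24 ± 0.17 log2 units, or 2.35-fold (limma, adjusted p = 0.000644), the largest fall among the 26 tested genes.

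Other enzymes here handle peroxide or the same kind of oxidase reaction. Catalase (Cat), which breaks hydrogen peroxide down, was at 7.40, 7.31 and 7.35 in mutants and 7.70, 7.76 and 7.90 in wild type. The 3 mutant values were all lower, but the difference of -0.43 ± 0.17 did not pass (limma, adjusted p = 0.194, 95% interval -0.79 to -0.07). Dao, the oxidase of D-amino acids, was at 2.71, 1.97 and 1.18 in mutants and 2.31, 3.13 and 2.76 in wild type, so the groups overlapped and mutant replicate 1 stood above wild-type replicate 1. Its difference of -0.78 ± 0.32 did not pass (limma, adjusted p = 0.225), and it passed without mutant replicate 1 (limma, adjusted p = 0.0494).

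Ehhadh encodes the L-bifunctional enzyme, which carries out the middle steps of peroxisomal fatty acid oxidation and is a classical target gene of PPAR alpha. Its level was 3.38, 3.37 and 3.56 in mutants and 4.42, 4.27 and 4.48 in wild type. The groups were far apart relative to their spread, with SDs of 0.11 in both. Ehhadh fell by 0.95 ± 0.14, or 1.93-fold (limma, adjusted p = 0.000752).

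Hsd17b4 encodes the D-bifunctional enzyme, which carries out the same steps and is the main one for branched and very long substrates. It was at 4.88, 4.41 and 4.69 in mutants and 4.87, 4.81 and 4.87 in wild type. The groups overlapped, and the difference of -0.19 ± 0.14 did not pass (95% interval -0.50 to 0.12). Within an array, the log2 ratio of Ehhadh to Hsd17b4 was -1.50, -1.04 and -1.13 in mutants and -0.45, -0.54 and -0.39 in wild type, a change of -0.76. All mutant ratios were lower, with an exact two-sided permutation p of 0.1 over the 6 arrays. With 3 against 3 this test cannot give a smaller p. The pair was formed after the values were known, so its ratio is no independent support.

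Acox2 and Acox3 encode oxidases that open the pathway for branched substrates. Acox2 was at 4.31, 4.92 and 4.69 in mutants and 5.45, 5.59 and 5.42 in wild type, and fell by 0.85 ± 0.16, or 1.80-fold (limma, adjusted p = 0.0055). The groups were apart, with the wider spread among mutants. Acox3 differed by -0.43 ± 0.23 with overlapping groups and did not pass.

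Amacr, the racemase that turns branched fatty acids into the form that can be oxidised, was at 4.35, 5.03 and 4.60 in mutants and 5.34, 5.65 and 5.32 in wild type. The groups did not overlap, and Amacr fell by 0.77 ± 0.17, or 1.71-fold (limma, adjusted p = 0.0169). Mutant replicate 1 was lowest for both Acox2 and Amacr. Amacr no longer passed without wild-type replicate 2, mutant replicate 1 or mutant replicate 3.

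Thiolases close each round of oxidation. Scp2, which encodes a thiolase for branched substrates and, from the same gene, a small lipid carrier protein, was at 6.22, 5.95 and 5.89 in mutants and 6.50, 6.84 and 6.72 in wild type. The groups did not overlap, and Scp2 fell by 0.67 ± 0.16, or 1.59-fold (limma, adjusted p = 0.0216). A second Scp2 probe differed by -0.57 ± 0.22 and did not pass (limma, adjusted p = 0.18).

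The Scp2 call was lost in the fits without wild-type replicate 2 or 3 and without mutant replicate 2 or 3. Acaa1a, the thiolase of straight chains, was at 5.40, 5.47 and 5.54 in mutants and 5.38, 5.86 and 5.48 in wild type, and differed by -0.10 ± 0.15 (95% interval -0.42 to 0.22). The near-identical Acaa1b had only a probe annotated to both genes, which was not used, and whether the Acaa1a probe also detects Acaa1b transcripts was not tested. The log2 ratio of Scp2 to Acaa1a averaged 0.55 ± 0.24 in mutants and 1.11 ± 0.13 in wild type (SD, n = 3 each), with no overlap (exact permutation p = 0.1).

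Of the 4 pairs of enzymes with neighbouring roles that were compared in this way, Acox2 with Acox3 and Phyh with Hacl1 had overlapping ratios (exact permutation p = 0.4 and 0.3). After Benjamini-Hochberg adjustment over the 4 pairs the p-values were 0.2, 0.2, 0.4 and 0.4. With 3 arrays a genotype this test cannot pass 0.05, and the pairs were formed after the values were known. The ratios are therefore no independent support.

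Crot, which links shortened acyl groups to carnitine for export to mitochondria, was at 3.60, 3.63 and 3.28 in mutants and 3.93, 4.45 and 3.96 in wild type. The groups did not overlap, but its difference of -0.61 ± 0.17 missed the threshold (limma, adjusted p = 0.0527) and passed it in 6 of 19 alternative fits. Pecr, a reductase of unsaturated acyl-CoAs in fatty acid elongation, was at 6.29, 6.37 and 6.57 in mutants and 7.02, 7.44 and 7.29 in wild type, with no overlap. Pecr fell by 0.83 ± 0.17, or 1.78-fold (limma, adjusted p = 0.00794). A second Pecr probe also fell, by 0.93 ± 0.14 (limma, adjusted p = 0.00132).

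Phyh hydroxylates phytanoyl-CoA, the first step of the alpha oxidation that removes a carbon from methyl-branched fatty acids, and Hacl1 is the lyase that cleaves its product. Phyh was at 5.04, 5.24 and 5.36 in mutants and 5.83, 6.16 and 5.94 in wild type, with no overlap. It fell by 0.76 ± 0.15, or 1.70-fold (limma, adjusted p = 0.00632). Hacl1 was at 6.51, 5.66 and 6.02 in mutants and 6.50, 6.11 and 6.17 in wild type, and its difference of -0.20 ± 0.20 did not pass (95% interval -0.63 to 0.23).

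Ether lipid synthesis begins with Gnpat and Agps, and neither passed. Gnpat differed by -0.17 ± 0.19. Agps, whose wild-type mean of 0.45 lay below the low-signal limit of 0.59 log2, differed by 0.46 ± 0.43 with overlapping groups. The fatty acid importers Abcd2 and Abcd3 were too dim to be tested, with every value below that limit.

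**Figure D1:**
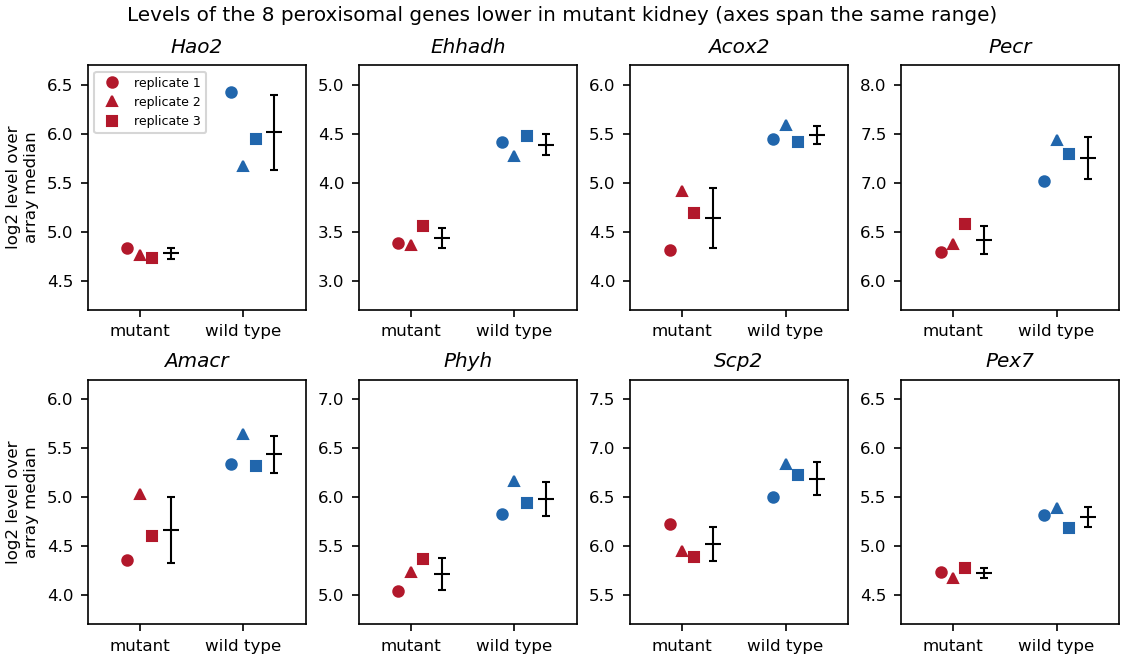
Log2 level over the array median (vertical axis) of the 8 peroxisomal genes lower in mutant kidney, for 3 mutant arrays (red, left) and 3 wild-type arrays (blue, right), with the mean and SD as black bars and marker shapes for replicate numbers. In each panel the 3 mutant points lie below the 3 wild-type points, with the widest separation of means for Hao2.

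Among the Pex genes, Pex7 encodes the receptor that carries enzymes with the N-terminal type of targeting signal, Phyh, Agps and the Acaa1 thiolases among its known cargo. Pex7 was at 4.73, 4.67 and 4.77 in mutants and 5.32, 5.38 and 5.18 in wild type. The groups were apart by 0.41 log2 units, with SDs of 0.05 in mutants and 0.10 in wild type. Pex7 fell by 0.57 ± 0.13, or 1.48-fold (limma, adjusted p = 0.0174), and did not pass without wild-type replicate 2, mutant replicate 1 or mutant replicate 2. Pex5, the receptor for the C-terminal type of signal, was below the low-signal limit on every array with a value and was not tested.

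Pex2, a subunit of the ubiquitin ligase that acts on the receptors, was at 3.58, 3.65 and 3.10 in mutants and 3.68, 3.73 and 4.16 in wild type. The groups did not overlap but came within 0.03 log2 units of each other, and the difference of -0.41 ± 0.18 did not pass (limma, adjusted p = 0.261). Pex10, another subunit, was not analysed here.

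Pex16, which helps to place membrane proteins, was at 3.41, 3.80 and 3.85 in mutants and 3.65, 3.96 and 4.13 in wild type. The groups overlapped and the difference of -0.23 ± 0.17 did not pass. Pex11a, which elongates peroxisomes before division, was at 2.09, 2.19 and 2.11 in mutants and 2.35, 2.54 and 2.16 in wild type, overlapping groups with a difference of -0.22 ± 0.19 that did not pass. Pex3 and Pex19, the anchor and the carrier of the same membrane pathway as Pex16, differed by -0.10 ± 0.19 and -0.08 ± 0.16, and a second Pex3 probe by -0.28 ± 0.17. The second probe of Pex6 was too dim to be tested, as was that of Abcd2.

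The docking proteins Pex13 and Pex14 differed by -0.14 ± 0.18 and -0.04 ± 0.17. Pex6, an ATPase that extracts used receptors, differed by -0.13 ± 0.12 (95% interval -0.40 to 0.14), although all 3 mutant values lay below the wild-type values. Pex26, its membrane anchor, was the only Pex gene with a positive difference, 0.17 ± 0.22. Over the 9 Pex genes that did not pass, the 95% interval of the difference began between -0.80 (Pex2) and -0.31 (Pex26), and for Pex2, Pex11a and Pex16 it included a fall as large as that of Pex7.

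**Figure D2:**
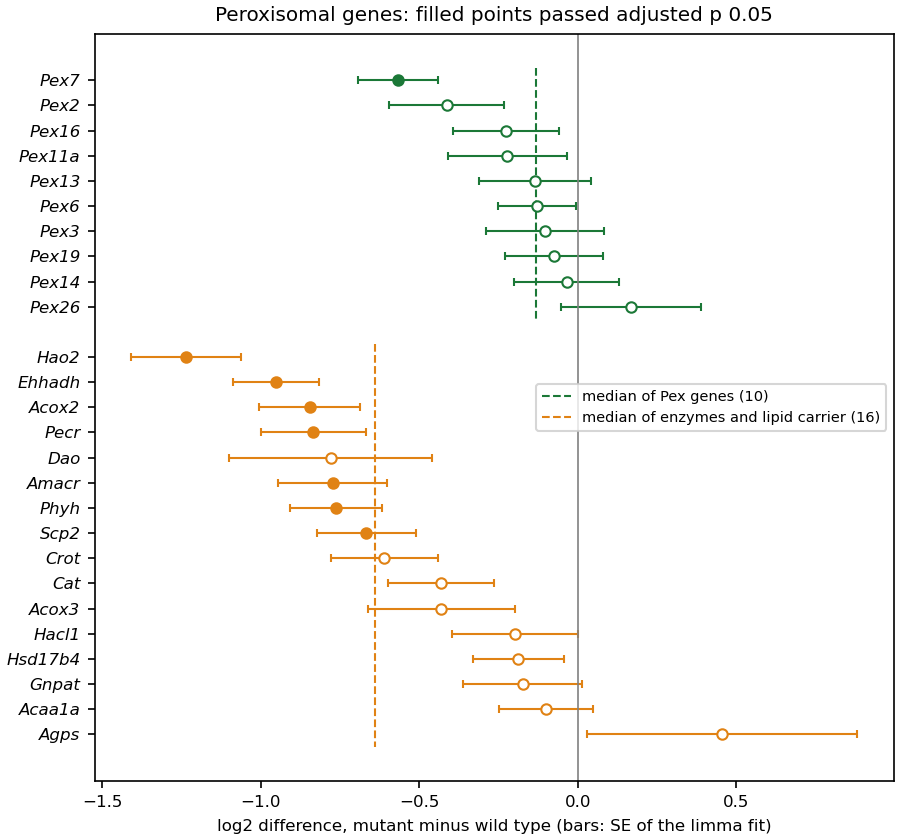
Log2 difference, mutant minus wild type, and its SE from limma (horizontal axis) for 10 Pex genes (green) and 16 genes of enzymes and a lipid carrier (orange); filled points passed an adjusted p of 0.05 and dashed lines are group medians. Pex genes cluster just below 0 with a median of -0.13, and the enzyme genes have a median of -0.64 and reach -1.24 for Hao2.

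Set side by side, 7 of 16 tested genes of enzymes and a lipid carrier fell, with a median difference of -0.64, and 1 of 10 tested Pex genes fell, with a median of -0.13. The membrane transporters of the list were not tested. Over all 25834 tested probes 1.27% fell, and the median was 0.06. The difference was negative in 15 of the 16 and in 9 of the 10, against 11536 of all 25834 tested probes. The groups did not overlap, with all mutant arrays lower, in 9 of the 16 and in 3 of the 10, against 8.32% of the probes with 6 values. The enzyme probes were also brighter, and the SEs ran from 0.14 to 0.43 for enzyme genes and from 0.12 to 0.22 for Pex genes. Among those with a mean level of at least 3 log2 units, 7 of 13 enzyme genes and 1 of 6 Pex genes fell, against 4.79% of all such probes. Their medians were -0.67 and -0.18, against 0.08 for all such probes.

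The contrast was also read within each array, where probe brightness sets the size of the gap and only its difference between arrays can be read. The median level over the 16 enzyme genes exceeded that over the 10 Pex genes by 1.41, 1.42 and 1.59 log2 units in mutants and by 2.03, 2.18 and 1.90 in wild type. The mutant gaps were all smaller. Whether enzyme genes as a class differ from Pex genes was not tested, since both were chosen with results of these arrays known. Without wild-type replicate 2 the enzyme median was -0.44. Quantile normalization gave a Pex median of -0.26 and an enzyme median of -0.68, and cyclic loess gave -0.24 for Pex and -0.69 for enzyme genes. With the second probe of genes that have several, the Pex median was -0.22 and the enzyme median -0.59. With those probes 7 of 25 tested genes were lower, against 1.27% of all tested probes. Pex6 dropped out there, as its second probe was too dim.

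**Figure D3:**
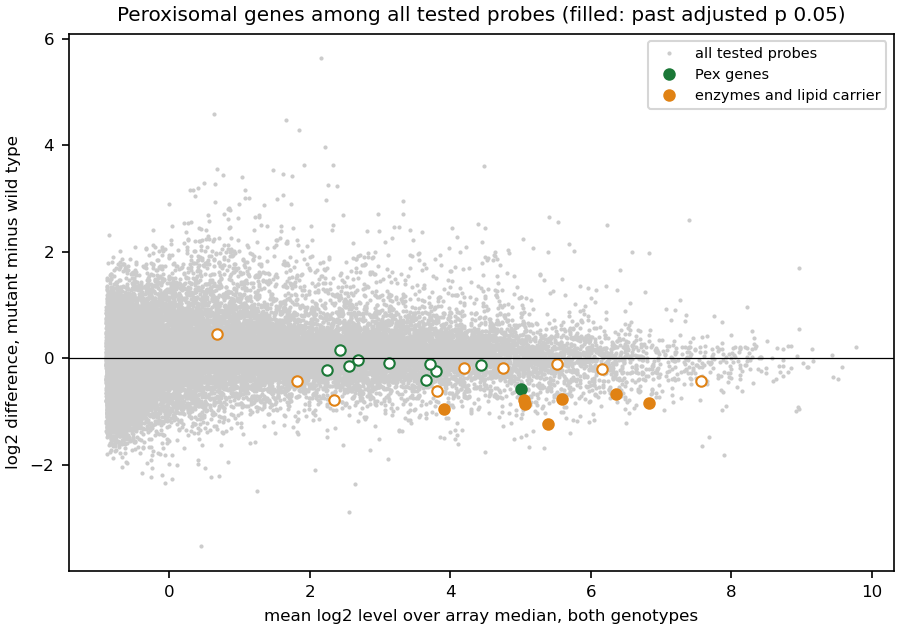
Log2 difference, mutant minus wild type (vertical axis), against the mean log2 level over both genotypes (horizontal axis) for all 25834 tested probes (grey), 10 Pex genes (green) and 16 enzyme and lipid carrier genes (orange), filled where the gene passed. The 8 filled points lie in the lower part of the grey cloud at mean levels above 3, where some grey points lie lower still.

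The rest of peroxisomal biology was read from a list of 43 further genes, of which 34 were tested. The median of these was -0.40, 0 rose, against 4.11% of all tested probes, and 6 fell, against 1.27%. They were the membrane channel protein Pxmp2 (-0.63 ± 0.16), the membrane protein Pxmp4 (-0.50 ± 0.13), Tysnd1, a protease that trims imported enzymes (-0.49 ± 0.13), Pipox, an oxidase of pipecolate and sarcosine (-0.66 ± 0.14), the epoxide hydrolase Ephx2 (-0.61 ± 0.14) and Idh1, an NADPH source of cytosol and peroxisome (-1.11 ± 0.24). Pipox was at 4.94, 5.05 and 4.76 in mutants and 5.56, 5.69 and 5.47 in wild type, and its groups did not overlap. Idh1 was at 4.09, 3.24 and 2.88 in mutants and 4.28, 4.57 and 4.70 in wild type, so its mutant arrays were spread widely, with replicate 1 near the wild-type range.

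The second Pxmp4 probe differed by -0.23 ± 0.18 and did not pass. Slc27a2, which activates very long chain fatty acids, was at 7.77, 7.70 and 7.23 in mutants and 8.11, 8.34 and 8.13 in wild type. Its groups did not overlap, but the difference of -0.63 ± 0.20 did not pass (limma, adjusted p = 0.103). Pex11g, the only further Pex gene analysed here, differed by -0.27 ± 0.21.

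PPAR alpha is the nuclear receptor through which fatty acids switch on many peroxisomal and mitochondrial oxidation genes. Of 9 tested target genes outside the peroxisome 0 rose and 3 fell, against 4.11% and 1.27% of all tested probes. The 3 were Acadm, the mitochondrial medium-chain dehydrogenase (-1.05 ± 0.12), the microsomal hydroxylase Cyp4a14 (-1.01 ± 0.18) and the carnitine transferase Cpt2 (-0.62 ± 0.16). Angptl4, also a target gene, had a positive difference of 0.83 ± 0.33 that did not pass, with wild-type replicate 1 at 3.35 and the other arrays of both genotypes between 4.59 and 5.28. Of 6 tested receptor and partner genes, 0 passed. Ppara itself was at -0.94, 0.64 and 0.41 in mutants and 0.66, 0.86 and 0.42 in wild type, near or below the low-signal limit, so its difference of -0.61 ± 0.46 could not be read firmly.

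Over both parts of this list, 9 of 49 tested genes fell, against 1.27% of all tested probes. That number was 3 without wild-type replicate 2, without wild-type replicate 3 or without mutant replicate 2, and 4 without mutant replicate 3. In those fits, in that order, 0.841%, 0.690%, 0.632% and 0.865% of all tested probes were called lower. The number of related genes was 0 with no intensity trend, against 0.0465% of all tested probes.

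**Figure D4:**
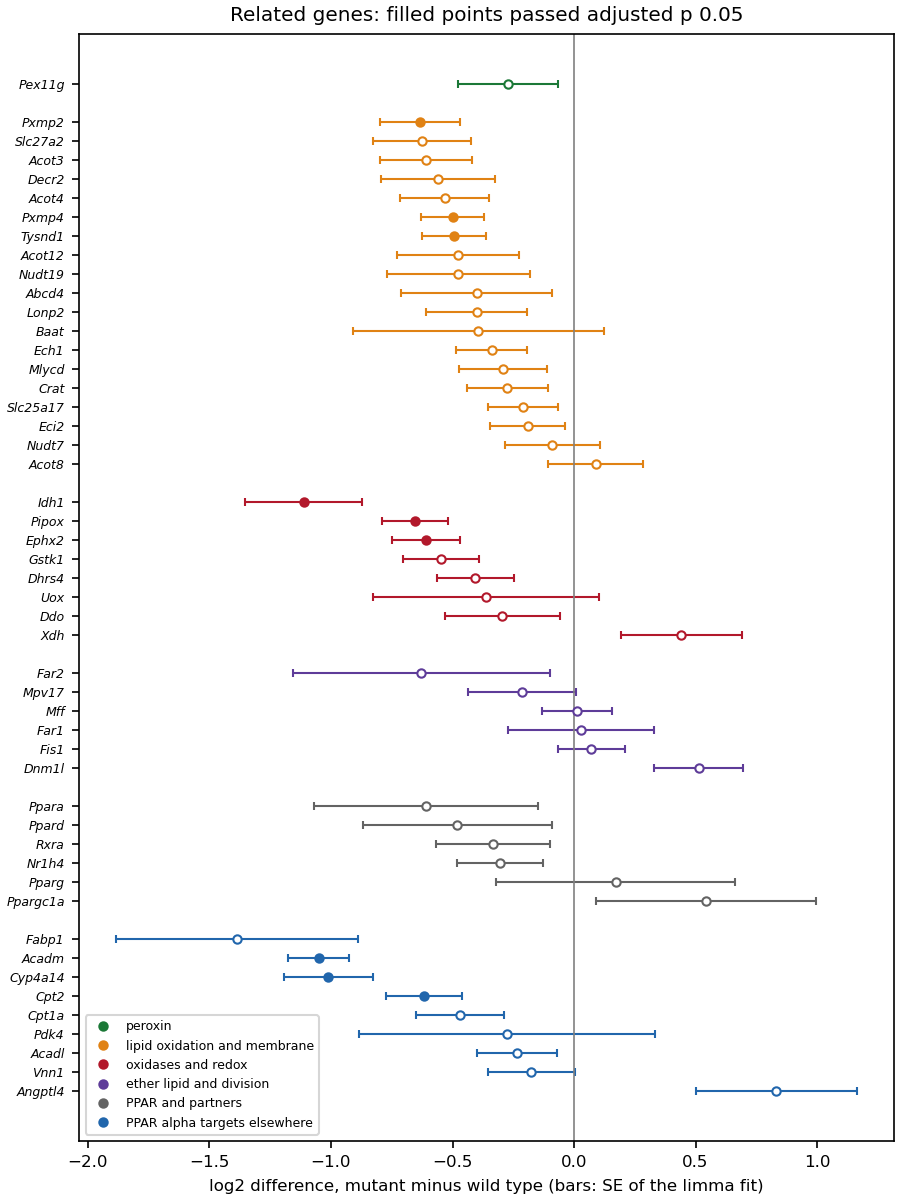
Log2 difference, mutant minus wild type, and its SE from limma (horizontal axis) for 49 related genes in 6 lists marked by colour; filled points passed an adjusted p of 0.05. The 9 filled points are all negative, and genes of ether lipid synthesis and division scatter around 0.

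Arrays differed little as a whole: 37.6% to 41.8% of an array's values exceeded the low-signal limit, and correlations between arrays ran from 0.90 to 0.95. That share was higher on every mutant array (40.74% to 41.80%) than on any wild-type array (37.62% to 40.65%), and its bearing on the falls was not tested. Replicate 1 of both genotypes had a signal for Xist (3.00 in the mutant, 2.21 in wild type) and none above the limit for the Y-linked Eif2s3y, and replicates 2 and 3 had the opposite, so this pattern was balanced between the genotypes. Hao2 was highest in wild-type replicate 1. With only replicates 2 and 3 of each genotype, Hao2, Ehhadh, Acox2, Pecr, Phyh and Scp2 still passed, Amacr and Pex7 did not, and Dao did.

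Markers of proximal tubule cells moved in the same direction as the peroxisomal enzymes. Of 14 tested markers 6 fell and 0 rose, against 1.27% and 4.11% of all tested probes. The median was -0.74 and all 14 differences were negative, against 11536 of all 25834 tested probes. One of the 14, Slc5a2 (-0.08 ± 0.49), was above the low-signal limit on 1 mutant array and 0 wild-type arrays. The summed level of the list was 906 to 987 times the array median in mutants and 1505 to 1670 in wild type. Bright probes weigh most in such a sum, here Miox (wild-type mean 9.41) and Keg1 (8.90). Miox fell by 0.99 ± 0.23, and Keg1 differed by -0.33 ± 0.21 and did not pass. The sums given below for other lists are weighted by brightness in the same way. The transcription factor Hnf4a fell by 0.76 ± 0.15 and the phosphate transporter Slc34a1 by 0.72 ± 0.14, while the endocytic receptor Lrp2 differed by -0.55 ± 0.18 and did not pass. In whole tissue, fewer cells of a type and less RNA per cell cannot be told apart, and the part of the proximal tubule markers in the peroxisomal falls was not tested.

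Macrophage and fibroblast markers moved the other way. Beside the counts below, 4.11% of all tested probes rose and 1.27% fell. Of 11 tested macrophage and myeloid markers 8 rose, and the list summed to 176 to 261 in mutants and 39.1 to 46.8 in wild type, although Adgre1 was below the low-signal limit on every array with a value. Of 10 fibroblast and matrix markers 9 rose, and the list summed to 517 to 545 in mutants and 143 to 175 in wild type. Of 9 distal nephron markers 1 fell, the calcium-binding protein gene Pvalb (-1.44 ± 0.25), and 0 rose, with a median of 0.13. Endothelial (5 tested) and podocyte markers (3 tested) had 0 calls, as had 3 tested liver markers. Of 3 tested adipocyte markers 1 rose, Cidec (1.21 ± 0.16). Adipoq ran from -1.47 to 2.01 in mutants and from -0.08 to 2.78 in wild type and did not separate the genotypes. The part of these cells in the peroxisomal results was not tested.

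**Figure D5:**
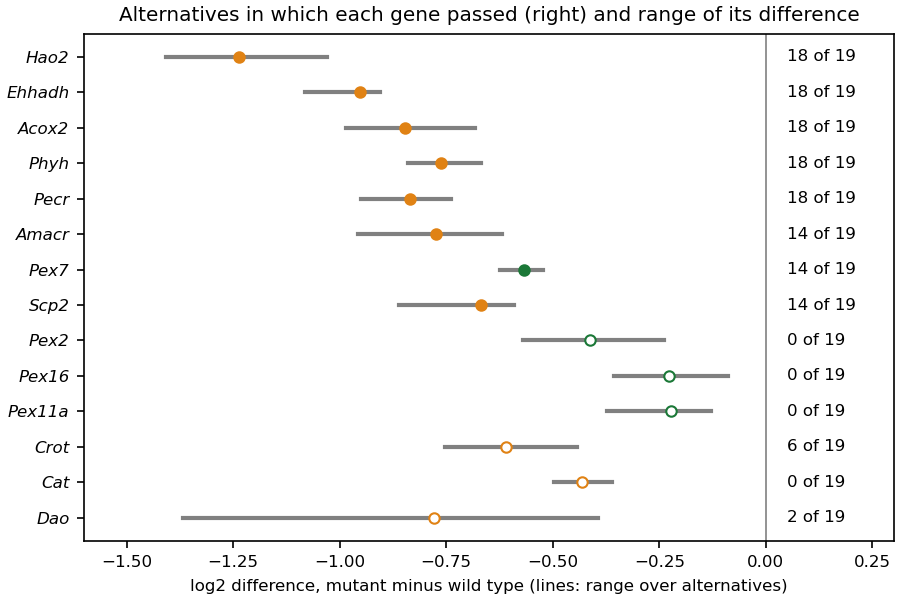
Log2 difference, mutant minus wild type (horizontal axis), of 14 peroxisomal genes (points, green for Pex genes, orange for enzymes, filled where the gene passed), with its range over 19 alternative fits as a grey line and the number of those fits in which the gene passed at the right. Hao2, Ehhadh, Acox2, Phyh and Pecr passed in 18 of 19, and no range crosses 0.

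Every one of the 14 genes followed most closely kept a negative difference in the 19 alternative fits. These genes were picked by their small p in the same arrays that the alternatives refit. Kept signs were therefore largely set in advance and are no independent support. Hao2 stayed between -1.41 and -1.03 and Ehhadh between -1.08 and -0.91. For Hao2, Ehhadh, Acox2, Phyh and Pecr the fit with no intensity trend was the only one in which the call was lost, at adjusted p-values of 0.0896, 0.0826, 0.163, 0.161 and 0.144 by limma.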

How the data were processed

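The deposited table held 1 linear intensity per probe and array, background-subtracted and scaled by the authors to a median between 0.994 and 0.997, as read from the values; per the labels' protocols, biotin-labelled cRNA was hybridised to single-colour CodeLink arrays. Neither the labels nor the table name the software, the background method or the scaling. After division by each array's median, zero and negative values were dropped, positive ones were raised to at least 0.290 (their 10th percentile), and the result was put on a log2 scale. Probes needed values on 2 arrays per genotype, and the dimmest 25% were left out, which left 25834 of 34937. The low-signal limit, 1.51 times the array median, is the mode of the values plus 3 spreads below it. Genotypes were compared with limma 3.58.1 (R 4.3.3), with an intensity trend, two-sided. The number of arrays limits the precision.

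Members and lists were chosen with earlier results of these data known. Values on every array are given for members that passed, the 3 others of each class with the smallest p, and some genes paired with those by role. For others, such as Acox3, only the difference is given. The fit was also run on simulated data, where falls of about the size reported here were mostly missed, also above the low-signal limit. Far fewer probes differed there than were called here, which makes the adjusted threshold stricter. That recovery therefore does not carry over to these data. A gene that did not pass may still differ. Slc27a2, Angptl4, Dnm1l, Fis1, Mff, Xdh, Adgre1, Pvalb, Cidec, Adipoq, Slc5a2, Miox and Keg1 were named after their values were seen. Promoter sequences are RefSeq's.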

Additional observations from a re-analysis of the deposited data

How the results depend on the processing

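For the genes followed most closely, directions held more firmly than calls, but these genes were picked by their p in the same arrays. With no intensity trend, 0 of the peroxisomal genes and 0 of the 49 tested related genes passed, and calls over all probes numbered 191 against 1392, of which 12 against 329 were lower. With single arrays left out, peroxisomal genes lower in mutants numbered from 5 (without wild-type replicate 2) to 9 (without wild-type replicate 1). For related genes the number ran from 3 to 7. The share of all tested probes called lower ran from 0.632% to 1.33% in those fits. The median difference of enzyme and lipid carrier genes ranged from -0.44 to -0.70 in those fits and that of Pex genes from -0.11 to -0.19. At an adjusted p under 0.01 the counts were 5 peroxisomal and 2 related genes. The share of all probes at that threshold was not computed. Deviations of same-numbered arrays from their genotype means correlated at 0.02 to 0.07. These values are low, but each array correlated best with the array of its own number in the other genotype. Replicate 1 of both genotypes also shared the Xist signal. Whether the numbers mark matched animals was not tested, and the main fit left the number out. With the replicate number as a block, 9 peroxisomal genes were lower, Crot in addition, and the calls over all probes numbered 1856 against 1392. After quantile normalization 551 probes were lower and 880 higher, against 329 and 1063, and after cyclic loess 554 and 938; 9 peroxisomal genes were lower in both, and the Pex median was -0.26 and -0.24. The cause of these shifts was not tested. Dim probes limit Pex5, Abcd2, Abcd3, Agps and Ppara.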

Other observations

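Dnm1l, the GTPase that pinches peroxisomes and mitochondria in division, was at 3.09, 2.83 and 2.91 in mutants and 2.12, 2.67 and 2.49 in wild type. All 3 mutant values were higher, but the difference of 0.51 ± 0.18 did not pass (limma, adjusted p = 0.153). Its membrane adaptors Fis1 and Mff differed by 0.07 ± 0.14 and 0.01 ± 0.14. Of the 6 tested genes of ether lipid synthesis and division, 0 passed and 4 had a positive difference, against 14298 of all 25834 tested probes. Xdh, a xanthine oxidase that was listed with the redox enzymes, differed by 0.44 ± 0.25 and did not pass, the only one of the 8 tested genes of that list with a positive difference.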
